A study of Apis mellifera with 12 samples.

Results

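The miRNAs miR-34, miR-277 and miR-317 are neighbours in insect genomes, and they were described here in the brains of worker honey bees (Apis mellifera) after RNA interference against vitellogenin. They were taken by name, as 3 of the 168 miRNA probes on the arrays. The dsVg group was injected with double-stranded RNA (dsRNA) against vitellogenin, the yolk precursor protein of insects. The dsGFP group is the sham control, and its dsRNA was directed at green fluorescent protein, a jellyfish protein with no gene in bees. All workers were injected in the abdomen when newly emerged, with 2 µL at 10 µg/µL, and were 15 days old when sampled. Each group had 6 brain pools on 1 array each, and a pool joined 200 ng of RNA under 200 nucleotides from each of 5 bees. The source names call these samples forager brains, but behaviour was not used as a factor, and vitellogenin itself was not measured on these arrays.

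MicroRNAs are short RNAs that bind messenger RNAs through a seed near their 5′ end and lower the output of those messages. In fruit flies miR-34 is raised with age in the brain, and flies without it show early brain decline. Fly miR-277 acts on enzymes of branched-chain amino acid breakdown, and fly miR-317 takes part in immune signalling. In fly cells ecdysone lowers and juvenile hormone raises miR-34, and in worker bees juvenile hormone and vitellogenin suppress each other. These are background facts from other work.

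The mature sequences given by the scanner tables are shown because the seed sets the targets of a miRNA and its base composition affects binding to a probe. Capitals mark the seed, bases 2 to 8 counted from the 5′ end.
ame-miR-34: uGGCAGUGuuguuagcugguug
ame-miR-277: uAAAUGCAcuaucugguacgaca
ame-miR-317: uGAACACAgcuggugguaucucagu
ame-miR-3730: aCAACGAGggugaagauugcgug
The 3 cluster members have 3 different seeds, and 0 of the other probes on the array shared bases 2 to 8 with any of them. All 3 begin with U. Their lengths are 22 bases for miR-34, 23 for miR-277 and 25 for miR-317, and their GC contents are 50%, 39.1% and 48% in the same order, so miR-277 is the member poorest in G and C. In the RefSeq annotation of Amel_HAv3.1 the genes lie on linkage group 5 in the order Mir317, Mir277, Mir3730, Mir34, all within the span of 1 protein-coding gene, LOC102655904. The fourth sequence is that of miR-3730, a miRNA gene that lies between Mir277 and Mir34 in this annotation, and is not a member.

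Intensities came from 18 spots per miRNA, each array had 608 empty spots, and detection required a mean intensity above the 95th percentile of those empty spots. Of the 168 miRNAs, 84 were detected on at least 6 arrays and tested, and 33 were detected on all 12, the 3 members among them. The arrays were of 2 kinds: 6 had over 80 detected miRNAs (97 to 168) and 6 had fewer (34 to 60), with 3 pools of each group in either kind. The scanner table of dsVg pool 5 holds whole numbers only, and that of dsGFP pool 1 names its intensity a median where the other 11 name a mean. The neuronal markers miR-124, miR-1000 and miR-137 were detected on 12, 11 and 11 arrays. The muscle markers miR-1 and miR-133 were detected on 11 and 12. The number of arrays sets the precision, and p-values set a difference between groups against the spread between pools as labelled. Each pool had 1 array, so that spread includes differences between arrays.

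All 3 members were bright. The mean intensity of miR-34 was 8.96 to 116 times the median of the empty spots of the same array, that of miR-277 10.5 to 132 times and that of miR-317 23.9 to 225 times. The brightest spot of any member, 29792 for miR-317, lay below the brightest spots of the arrays (46586 to 62141). By order of intensity among the 168 miRNAs of an array, miR-317 held places 3 to 7, miR-277 places 8 to 11 and miR-34 places 6 to 13. Probes differ in binding, so these places describe signal and not abundance. Spots of 1 probe on 1 array agreed closely: the coefficient of variation had a median over arrays of 3.48% for miR-34, 5.11% for miR-277 and 3.19% for miR-317. Among the spots of miR-34, 2 of 216 lay far below the median of their array. These were a spot at 1784 against a median of 4082 in dsGFP pool 1 and a spot at 1758 against a median of 9099 in dsGFP pool 3. No spot of the other members lay that low.

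The first member described is miR-34. Its mean scanner intensity was 6233, 8529, 9812, 8171, 18811 and 7005 in dsVg pools 1 to 6. It was 3945, 7531, 8675, 5998, 2469 and 4035 in dsGFP pools 1 to 6. The groups overlapped, dsVg pool 5 was the brightest and dsGFP pool 5 the dimmest, and all 6 dsVg pools lay above the dsGFP mean. On the log2 scale before any scaling between arrays, miR-34 averaged 13.13 ± 0.57 in dsVg pools and 12.23 ± 0.70 in dsGFP pools (SD, n = 6 each), 0.90 apart (exact permutation p = 0.0368, two-sided, and limma adjusted p = 0.828 over 84 miRNAs). The median difference of all 84 was 0.15 at that step.

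Quantile normalization, which gives every array the same set of values, left a smaller difference. The level of miR-34 then averaged 12.77 ± 0.61 in dsVg pools and 12.50 ± 0.42 in dsGFP pools (log2, SD, n = 6 each). The difference was 0.28 (SE 0.28, 95% interval -0.34 to 0.89, limma adjusted p = 0.772, exact permutation p = 0.407), with 4 of 6 dsVg pools above the dsGFP mean. The interval corresponds to 0.789-fold to 1.86-fold. The median difference of all 84 miRNAs was 0.03 at this step. The sign stayed positive in every alternative run, while the size ran from 0.0096 to 0.90. It was 0.0096 without dsVg pools 1 and 5, 0.14 without dsVg pool 5 and 0.18 without dsVg pool 1. In the authors' table of processed values miR-34 had a median of 6355 (4287 to 11515) in dsVg pools and 4530 (2909 to 6720) in dsGFP pools, which gave a log2 difference of 0.50 (SE 0.27, limma adjusted p = 0.531).

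**Figure D1:**
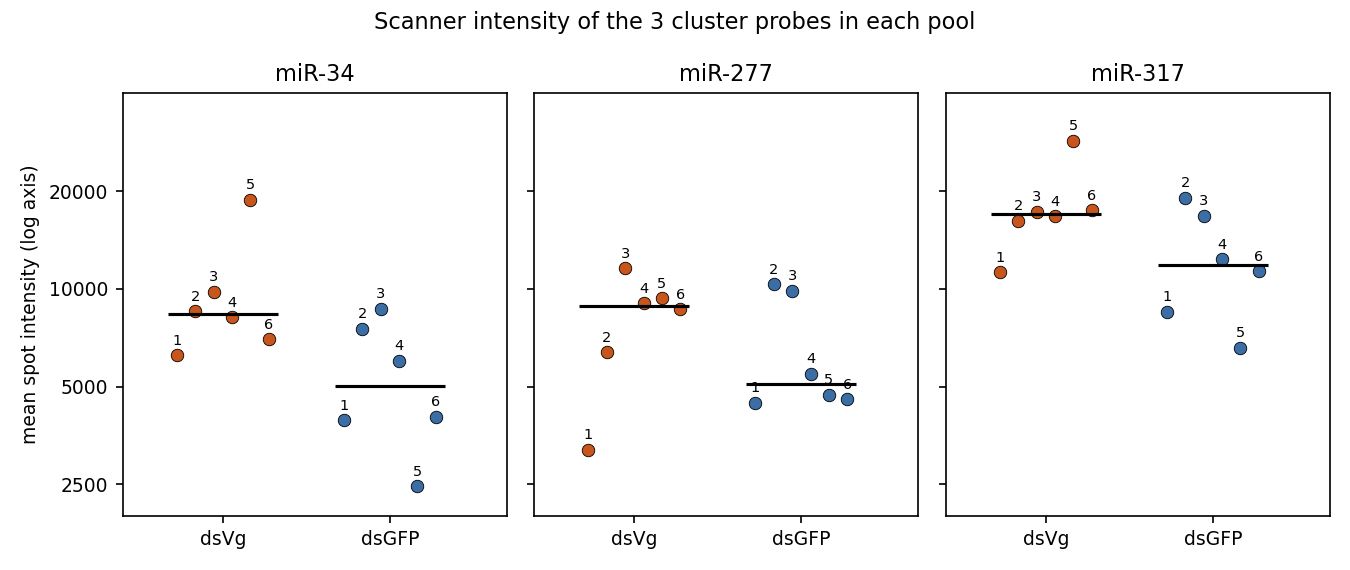
Mean scanner intensity over 18 spots (log axis, with background) of the 3 cluster probes in each of the 12 pools, with the pool number above each point and a bar at the group median. The dsVg and dsGFP pools overlap for all 3, and dsVg pool 1 is the dimmest pool for miR-277 (3192) but not for miR-34 (6233) or miR-317 (11263).

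The probe of miR-277 varied in another order over the pools. Its mean scanner intensity was 3192, 6381, 11580, 9038, 9359 and 8648 in dsVg pools 1 to 6. It was 4457, 10336, 9873, 5469, 4721 and 4569 in dsGFP pools 1 to 6. The lowest of all 12 was dsVg pool 1, and the groups overlapped. Before scaling, miR-277 averaged 12.83 ± 0.69 in dsVg pools and 12.55 ± 0.58 in dsGFP pools (log2, SD, n = 6 each), a difference of 0.28 (exact permutation p = 0.452). After quantile normalization it averaged 12.63 ± 0.14 in dsVg pools and 12.76 ± 0.16 in dsGFP pools, a difference of -0.12 (SE 0.10, 95% interval -0.34 to 0.09, limma adjusted p = 0.772, exact permutation p = 0.177), with 5 of 6 dsVg pools below the dsGFP mean. The interval corresponds to 0.789-fold to 1.07-fold. The sign of this difference turned with the scaling, being 0.22 after scaling to the median probe and 0.09 after scaling to the 75th percentile of all miRNA probes.

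The level of miR-277 spread little after normalization. A quantile-normalized value depends only on the place of the probe on its array by background-corrected log2 level. By scanner intensity, whose order can differ slightly from that one, miR-277 kept to places 8 to 11. The SD within groups was 0.15 for miR-277, 0.30 for miR-317 and 0.52 for miR-34. The median over the 33 miRNAs detected on all arrays was 0.49. Smaller SDs were found for 1, 7 and 22 of these 33 probes. In the authors' processed values miR-277 ran from 4030 to 6351 in dsVg pools, with a median of 5855. It ran from 5264 to 6732 in dsGFP pools, with a median of 6194, and the log2 difference was -0.11 (SE 0.17, limma adjusted p = 0.820).

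The probe of miR-317 was the brightest of the cluster on every array. Its mean scanner intensity was 11263, 16212, 17266, 16744, 28584 and 17455 in dsVg pools 1 to 6. It was 8501, 19083, 16810, 12317, 6592 and 11335 in dsGFP pools 1 to 6. As for miR-34, dsVg pool 5 was the highest and dsGFP pool 5 the lowest. Before scaling it averaged 14.06 ± 0.43 in dsVg pools and 13.49 ± 0.59 in dsGFP pools (log2, SD, n = 6 each), a difference of 0.57 (exact permutation p = 0.104). After quantile normalization it averaged 13.82 ± 0.38 in dsVg pools and 13.76 ± 0.18 in dsGFP pools, a difference of 0.06 (SE 0.17, 95% interval -0.30 to 0.42, limma adjusted p = 0.889, exact permutation p = 0.838). The interval corresponds to 0.810-fold to 1.34-fold. Its sign rested on single pools, since the difference was -0.044 without dsVg pool 5 and -0.0035 without dsGFP pool 5. In the authors' processed values miR-317 had a median of 13809 (12731 to 15728) in dsVg pools and 12996 (10476 to 16467) in dsGFP pools, a log2 difference of 0.11 (SE 0.16, limma adjusted p = 0.805).

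None of the 3 members passed an adjusted p of 0.05 in limma, where 0% of the 84 tested miRNAs did. At an unadjusted p under 0.05 there were 0 of the 3 members, against 3.57% of all tested (3 miRNAs, and 3 by the exact permutation test). In other settings miR-34 had an unadjusted limma p under 0.05 without normalization (0.0232), after cyclic loess (0.0331) and with the GC trend removed (0.0431), and miR-277 had one within the arrays with over 80 detected miRNAs (0.0454). The adjusted p-values of these were 0.282 to 0.956. None of the 3 had groups that did not overlap after quantile normalization, against 0% of all tested. The median difference of the members was 0.06 and that of all 84 was 0.03. In order of unadjusted p the members stood at places 23 (miR-277), 38 (miR-34) and 68 (miR-317) of 84. These tests do not show that the levels were alike, since the interval of miR-34 still held a 1.86-fold higher level in dsVg pools.

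The order of the 3 differences was steadier than their signs. Part of this is fixed in advance, since a shift common to all probes of an array moves all 3 equally. All settings also use the same arrays. With all pools the differences in ratio between members, given below, did not pass adjustment (exact permutation adjusted p = 0.107, 0.107 and 0.240). The difference of miR-34 exceeded that of miR-317, and that of miR-317 exceeded that of miR-277, without normalization (0.90, 0.57 and 0.28), after cyclic loess (0.51, 0.15 and -0.11), in the authors' processed values (0.50, 0.11 and -0.11) and after quantile normalization (0.28, 0.06 and -0.12). The arrays with over 80 detected miRNAs gave 0.06, -0.17 and -0.32, and those with fewer gave 0.54, 0.31 and 0.05. The GC trend of each array, described with the ratios, was also removed before quantile normalization. The order of the lower members then turned, with miR-277 at 0.07 (SE 0.20), miR-317 at 0.06 (SE 0.17) and miR-34 at 0.49. Before that normalization the order was kept with the trend removed, as the ratio of miR-277 to miR-317 differed by -0.09.

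**Figure D2:**
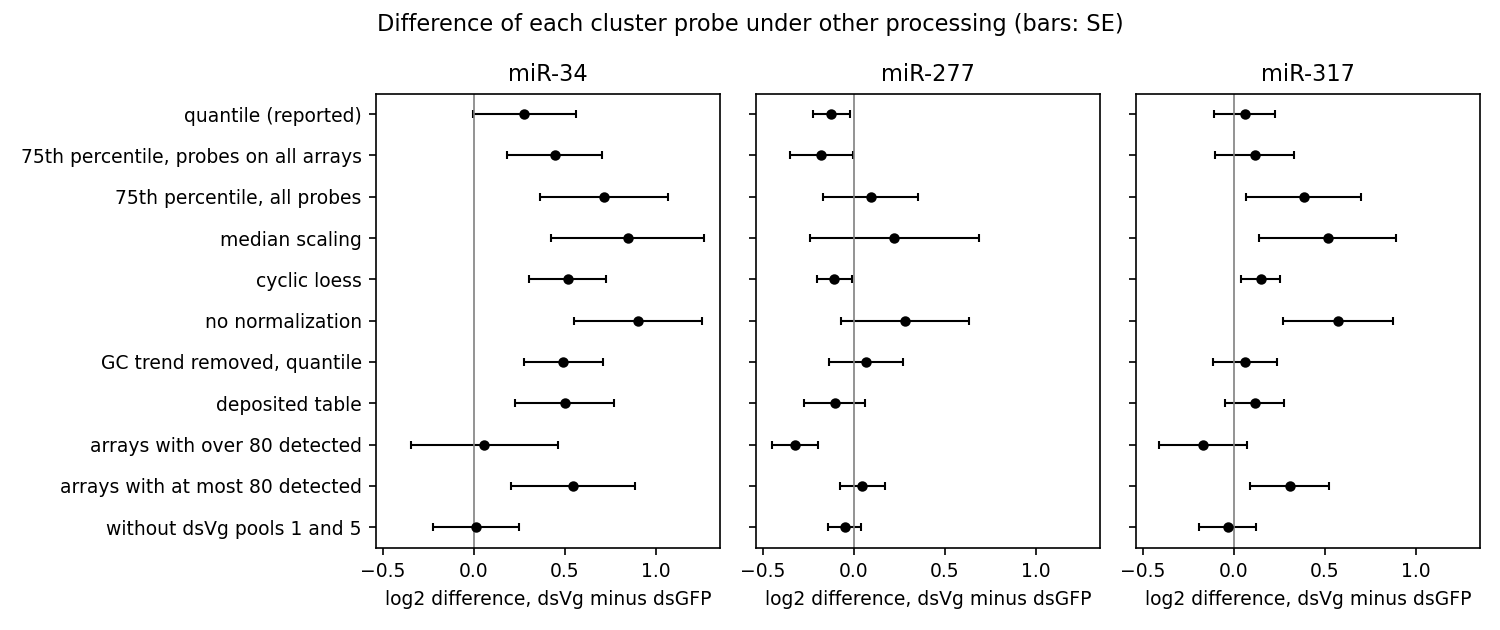
Difference in log2 level (dsVg minus dsGFP) of each cluster probe under quantile normalization and 10 other settings, with bars of 1 SE from limma. The difference of miR-34 is positive throughout (0.0096 to 0.90 in the settings shown), and those of miR-277 and miR-317 lie on both sides of 0.

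Ratios between members on the same array were compared next, because a factor common to all probes of an array cancels in a ratio. They were taken before normalization between arrays, and quantile normalization, which is not such a factor, changes them. The level of a ratio has no meaning of its own, since probes bind differently, and only its difference between groups was compared. The log2 ratio of miR-34 to miR-277 was 1.02, 0.42, -0.24, -0.14, 1.02 and -0.31 in dsVg pools 1 to 6. It was -0.20, -0.47, -0.25, 0.14, -0.98 and -0.19 in dsGFP pools 1 to 6. In linear terms the signal of miR-34 was 2.03 times that of miR-277 in both dsVg pools 1 and 5, and 0.506 to 1.10 times in dsGFP pools. The log2 ratio averaged 0.30 ± 0.62 in dsVg pools and -0.33 ± 0.38 in dsGFP pools (SD, n = 6 each), a difference of 0.62 (SE 0.30, exact permutation p = 0.0714, adjusted p = 0.107 over the 3 pairs). All 6 dsVg pools lay above the dsGFP mean, and 3 of 6 above the highest dsGFP pool. Without dsVg pools 1 and 5 the difference was 0.26, and with the ratio taken after quantile normalization it was 0.40 (exact permutation p = 0.245, adjusted p = 0.370).

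The ratio of miR-34 to miR-317 differed less but varied less. It was -0.88, -0.93, -0.82, -1.04, -0.61 and -1.33 in dsVg pools 1 to 6. It was -1.16, -1.36, -1.02, -1.04, -1.48 and -1.52 in dsGFP pools 1 to 6. The mean was -0.93 ± 0.24 in dsVg pools and -1.26 ± 0.22 in dsGFP pools (log2, SD, n = 6 each), a difference of 0.33, or 1.26-fold (SE 0.13, exact permutation p = 0.0368, adjusted p = 0.107). This did not pass adjustment over the 3 pairs, although it did without dsVg pool 6 (0.41, exact permutation adjusted p = 0.0325). With any other single pool left out it did not pass. The adjusted p was highest without dsGFP pool 5 (0.29, exact permutation p = 0.0758, adjusted p = 0.227). With the median of spots in place of the mean, the difference was 0.30 (exact permutation p = 0.0584, adjusted p = 0.130). The low spots of miR-34 both lay in dsGFP pools, where they lower the mean. In the authors' processed values the difference was 0.38 (exact permutation p = 0.152, adjusted p = 0.227). With the ratio taken after quantile normalization the difference was 0.22 (exact permutation p = 0.364, adjusted p = 0.370). The sign was positive in every alternative run. Within the arrays with over 80 detected miRNAs the difference was 0.20, and within the others 0.46. In either kind the 3 dsVg pools all lay above the 3 dsGFP pools, for which the exact permutation p is 0.100, the smallest that 3 pools against 3 allow. Such a separation in both kinds was found for 0.379% of the 528 pairs of miRNAs detected on all arrays, and for 1 of the 3 pairs of members. This comparison was not among the planned tests, and 3 pairs are too few to set against that share. In the arrays with fewer detected miRNAs the margin was small, with -1.33 in dsVg pool 6 and -1.36 in dsGFP pool 2. In the others it was -0.93 in dsVg pool 2 over -1.02 in dsGFP pool 3, which holds a low spot of miR-34. By spot medians with background, miR-34 and miR-317 were at 8531 and 16180 in dsVg pool 2. They were at 9099 and 16835 in dsGFP pool 3, a higher ratio, so the separation in that kind did not hold for spot medians.

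The ratio of miR-277 to miR-317 averaged -1.23 ± 0.49 in dsVg pools and -0.94 ± 0.30 in dsGFP pools (log2, SD, n = 6 each), a difference of -0.29 (SE 0.23, exact permutation p = 0.240, adjusted p = 0.240). After quantile normalization it was -0.18 (exact permutation p = 0.370, adjusted p = 0.370), and without dsVg pools 1 and 5 it was -0.02. Its lowest values were those of dsVg pools 1 and 5 (-1.90 and -1.63), which were also the pools highest in the ratio of miR-34 to miR-277. Over all 528 pairs of miRNAs detected on all arrays, the size of the difference in ratio had a median of 0.37, against 0.62, 0.33 and 0.29 for the 3 pairs of members. Over all pools, 0% of the 528 pairs, and 0 of the 3, had groups that did not overlap.

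**Figure D3:**
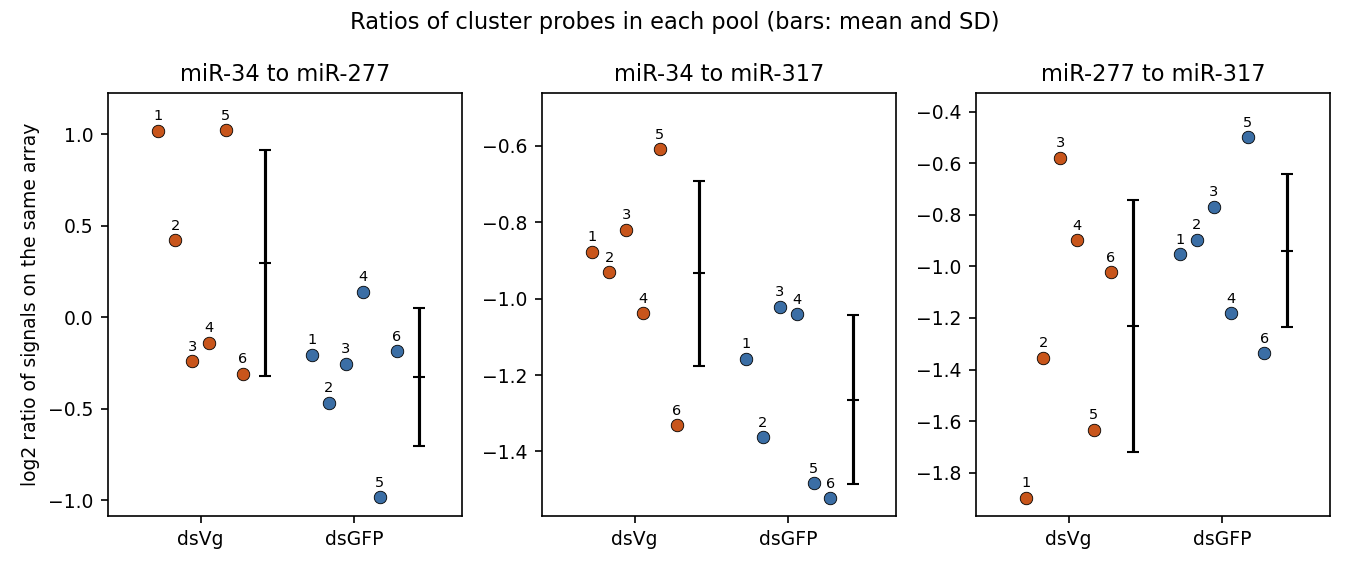
Log2 ratio of background-corrected signals on the same array for the 3 pairs of cluster probes, by pool (number above each point), with the group mean and SD beside the points. For miR-34 to miR-277, dsVg pools 1 and 5 stand highest at 1.02, and for miR-34 to miR-317 the group means are -0.93 in dsVg pools and -1.26 in dsGFP pools.

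The arrays also differed in how signal followed base composition, and the ratios that involve miR-277 moved with this. The trend was the change in log2 signal per 10 percentage points of GC, relative to the mean array, over the 30 miRNAs detected on all arrays other than the members. It was 0.41, 0.02, -0.36, -0.20, 0.99 and -0.17 in dsVg pools 1 to 6. It was -0.05, -0.29, -0.21, 0.03, -0.03 and -0.15 in dsGFP pools 1 to 6. Only dsVg pools 1 and 5 exceeded 0.1 among these 12, and they are the pools with the highest ratio of miR-34 to miR-277, whose GC contents are 10.9 points apart.

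This relation was examined after the values were seen. Across the 12 pools, the trend and the log2 ratio of miR-34 to miR-277 had Pearson's r = 0.78 (permutation p = 0.00349, adjusted p = 0.0105 over 3 pairs) and Spearman's rho = 0.69 (permutation p = 0.0165, adjusted p = 0.0247). It rests on dsVg pools 1 and 5, since r was 0.28 without them (permutation p = 0.443, n = 10), and it was 0.90 within dsVg pools, 0.14 within dsGFP pools, 0.92 within the arrays with over 80 detected miRNAs and 0.82 within the others. For miR-277 to miR-317, r was -0.72 (permutation p = 0.00723, adjusted p = 0.0108; rho = -0.73, permutation p = 0.00850, adjusted p = 0.0247), and -0.44 without these pools. It was -0.82 within dsVg pools, -0.03 within dsGFP pools, -0.98 within the arrays with over 80 detected miRNAs and -0.66 within the others. For miR-34 to miR-317, whose GC contents are 2 points apart, r was 0.57 (permutation p = 0.0490, adjusted p = 0.0490; rho = 0.24, permutation p = 0.459, adjusted p = 0.459), and -0.10 without these pools. It was 0.65 within dsVg pools, 0.20 within dsGFP pools, 0.0070 within the arrays with over 80 detected miRNAs and 0.82 within the others.

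With the trend of each array subtracted, the ratio of miR-34 to miR-277 averaged 0.17 ± 0.27 in dsVg pools and -0.20 ± 0.38 in dsGFP pools (log2, SD, n = 6 each). The difference was then 0.37 (exact permutation p = 0.0584, adjusted p = 0.0877), against 0.62 with the trend left in. That of miR-34 to miR-317 was 0.28 (exact permutation p = 0.0433, adjusted p = 0.0877), against 0.33. That of miR-277 to miR-317 was -0.09 (exact permutation p = 0.628, adjusted p = 0.628), against -0.29.

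**Figure D4:**
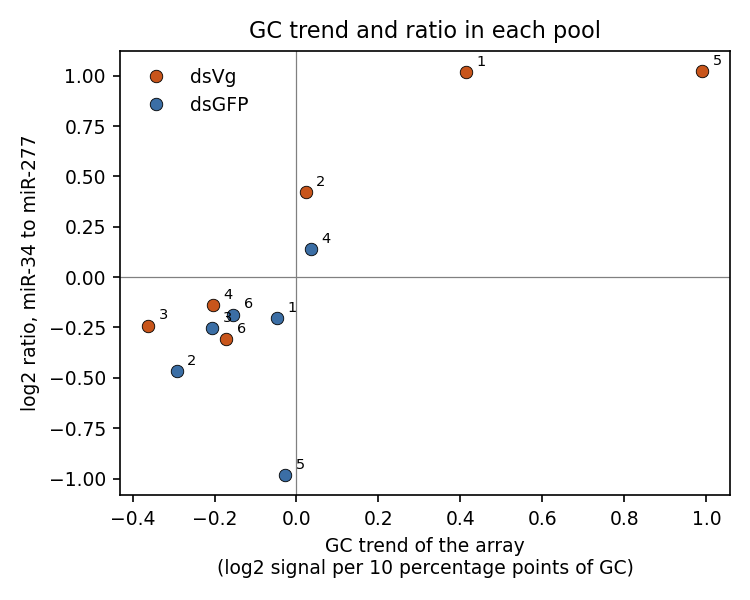
Each pool's GC trend (log2 signal per 10 percentage points of GC, over 30 other miRNAs) against its log2 ratio of miR-34 to miR-277, with pool numbers beside the points. The dsVg pools 1 and 5 lie apart at trends of 0.41 and 0.99 and ratios of 1.02, and the other 10 pools have trends of -0.36 to 0.03.

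Whether the 3 neighbours varied together over pools was examined on the quantile-normalized levels. The levels of miR-34 and miR-317 followed each other, with Pearson's r = 0.70 (permutation p = 0.00835, adjusted p = 0.0250 over 3 pairs) and Spearman's rho = 0.63 (permutation p = 0.0291, adjusted p = 0.0874, which does not pass) over 12 pools. Of the 528 pairs of miRNAs detected on all arrays, 83 had a higher r. The r was 0.71 within dsVg pools and 0.71 within dsGFP pools, and 0.89 and 0.85 within the arrays with over 80 detected miRNAs and within the others. Single pools carried the call. The pool farthest from the median of miR-34 was dsVg pool 5, and dsGFP pool 4, dsVg pool 1 and dsVg pool 2 tied for the next place. Without dsVg pool 5 and 1 of these 3, r was 0.50 to 0.65 (permutation p = 0.0426 to 0.144 unadjusted, n = 10), with p under 0.05 for 1 of the 3 choices. It no longer passed adjustment without dsGFP pool 4 (0.69), dsGFP pool 5 (0.66), dsVg pool 2 (0.68), dsVg pool 3 (0.65) or dsVg pool 5 (0.52). It was 0.44 with the GC trend removed and 0.57 in the authors' processed values, neither past adjustment.

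The level of miR-277 followed neither neighbour after quantile normalization. It had r = -0.14 with miR-34 (permutation p = 0.647, adjusted p = 0.662; rho = -0.02, permutation p = 0.963, adjusted p = 0.963) and r = -0.14 with miR-317 (permutation p = 0.662, adjusted p = 0.662; rho = -0.19, permutation p = 0.554, adjusted p = 0.832). With miR-34, r was -0.29 to 0.24 over the same 3 choices of pools left out, -0.20 within the arrays with over 80 detected miRNAs and -0.17 within the others. For miR-317, 5 pools tied as the farthest from the median of miR-277, and without 2 of them r was -0.21 to 0.0073 over the 10 choices. This r was 0.22 within the arrays with over 80 detected miRNAs and -0.54 within the others. These signs depended on the scaling, as both correlations were positive without normalization (0.67 and 0.77) and negative after cyclic loess (-0.73 and -0.70). With the GC trend removed they were 0.35 and 0.69. The median r over the 528 pairs of miRNAs detected on all arrays was 0.73 before normalization and 0.16 after it.

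The ratio of miR-34 to miR-317, taken before normalization, varied little within groups. Its SD within groups was 0.23 on the log2 scale, where the median over the 528 pairs was 0.57 and 18 pairs had a smaller SD. The SD was 0.51 for miR-34 to miR-277, with 232 pairs smaller, and 0.40 for miR-277 to miR-317, with 148 pairs smaller. With the GC trend removed these SDs were 0.21, 0.33 and 0.30, and 5, 57 and 31 pairs were smaller.

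**Figure D5:**
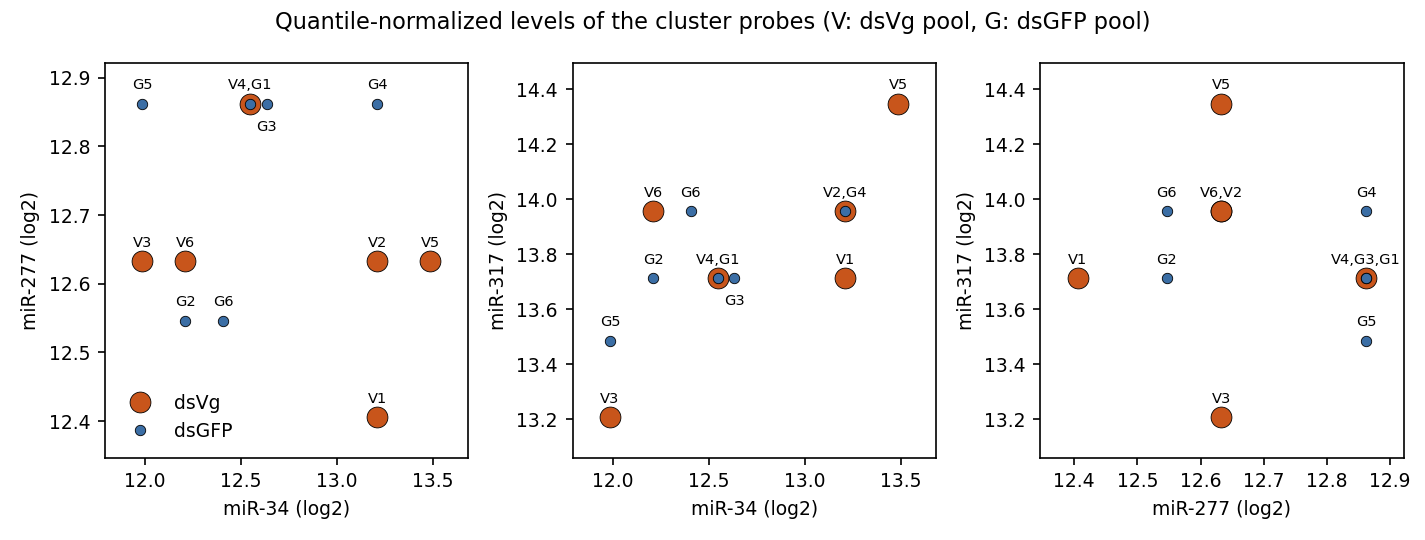
Quantile-normalized log2 levels of each pair of cluster probes in the 12 pools (V, dsVg, large points; G, dsGFP, small points; the digit is the pool number). Values repeat because they depend on a probe's place on its array, and r is 0.70 for miR-34 and miR-317 and -0.14 for both other pairs.

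The miRNAs whose levels were most like those of each member were taken by Spearman's rho over the 12 pools among the other 32 miRNAs detected on all arrays, as a description. For miR-34 they were miR-210 (rho = 0.89), the neuronal miRNA miR-124 (rho = 0.87) and miR-31a (rho = 0.85). For miR-277 they were let-7, a timing miRNA induced by ecdysone in flies (rho = 0.73), miR-71 (rho = 0.67) and miR-7 (rho = 0.43). For miR-317 they were miR-3719 (rho = 0.67), miR-275 (rho = 0.67) and miR-981 (rho = 0.66). The 3 nearest to miR-34 had differences of 0.32, 0.85 and 0.62 (limma adjusted p = 0.772, 0.666 and 0.666), and the 3 nearest to miR-277 had -0.13, -0.38 and -0.42 (limma adjusted p = 0.875, 0.772 and 0.822). The 3 nearest to miR-317 had 0.51, 0.61 and 0.03 (limma adjusted p = 0.772, 0.666 and 0.935), against 0.06 for miR-317 itself. All levels compared come from the same 12 arrays and share their GC trends.

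Further lists of miRNAs with related roles were set beside the cluster. Of 9 miRNAs tied to ageing and cell survival in flies, miR-34 and miR-277 included, 2 were higher and 7 lower in dsVg pools, with a median difference of -0.13, and 0 passed the adjusted p in either direction. Among its other members miR-305, which acts on stem cells of the ageing fly gut, had a difference of -0.29 (SE 0.17). For miR-125, of the let-7 gene cluster, it was 0.24 (SE 0.21), and for miR-14, which limits cell death in flies, it was -1.54 (SE 1.48). Of 9 tested metabolic miRNAs, miR-277 included, 2 were higher and 7 lower, with a median of -0.18 and 0 past the adjusted p. They include miR-375, known from endocrine cells in vertebrates, at -0.38 (SE 0.12) and miR-275 at 0.61 (SE 0.27), with limma adjusted p-values of 0.622 and 0.666. Of 8 neuronal miRNAs, 3 were higher and 5 lower, with a median of -0.07 and 0 past the adjusted p, among them miR-124 at 0.85 (SE 0.41), miR-279 at -0.39 (SE 0.35) and miR-1000 at -0.26 (SE 0.25). The lists share members, and of all 84 tested miRNAs 45 were higher and 39 lower in dsVg pools, with a median difference of 0.03.

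Markers of other tissues were given as summed linear levels after quantile normalization. Both muscle markers were detected, and their sum was 517 to 1231 in dsVg pools and 574 to 1310 in dsGFP pools, with miR-1 at -0.90 (SE 0.37) and miR-133 at 0.57 (SE 0.27). The 3 markers of gut, fat body and endocrine cells summed to 1252 to 3474 in dsVg pools and 1226 to 1765 in dsGFP pools. The 3 sensory organ markers summed to 4421 to 11669 in dsVg pools and 5933 to 13948 in dsGFP pools, and the 3 neuronal markers to 1426 to 4586 in dsVg pools and 1293 to 1730 in dsGFP pools. A linear sum weighs its brightest member most, and members of each set went both ways. In the gut set miR-275 was at 0.61, and miR-375 and miR-305 at -0.38 and -0.29. In the sensory set miR-7 was at -0.42, and miR-263 and miR-263b at 0.18 and 0.32. In the neuronal set miR-124 was at 0.85, and miR-1000 and miR-137 at -0.26 and -0.07. Of these 11 marker miRNAs 0 passed the adjusted p in limma. Fewer cells of a type and less RNA per cell cannot be told apart in pooled brains, and the part of these tissues in the values of the cluster was not tested.

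The genomic neighbour miR-3730 behaved unlike the members in brightness. Its probe was detected on 7 of 12 arrays, at 0.80 to 1.41 times the median of the empty spots in dsVg pools and 0.90 to 1.79 times in dsGFP pools. After quantile normalization it averaged 6.94 ± 0.09 in dsVg pools and 6.99 ± 0.21 in dsGFP pools (log2, SD, n = 6 each), a difference of -0.04 (SE 0.10, limma adjusted p = 0.875). Near background such a difference understates any change in abundance.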

How the data were processed

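Scanner intensities were deposited as 1 table per array, with the background included, and the authors also deposited processed intensities as whole numbers by a method not given in the sources used here. Per the labels' protocols, RNA was tailed, tagged and stained with Cy3 by a service provider, so each array has 1 colour. No header gives a background column or a genome build.

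Background was corrected by normexp on every spot (offset 50), with limma 3.58.1 in R 4.3.3. Spots (18 per probe) were averaged as log2 values and quantile-normalized over 168 miRNA probes. Of these, 84 (detected on at least 6 of 12 arrays) were tested with lmFit and eBayes, two-sided, with Benjamini-Hochberg adjustment. The limma step was tested on simulated data. Single values were compared by a two-sided exact permutation over 924 assignments of pools (smallest possible p 0.00216), and correlations by permutation (100000 resamples, exact for n = 6). Ratios were taken before normalization. Named miRNAs are the members, the 3 most like each member by Spearman's rho, and from each list at most 3 tested miRNAs, those lowest in p. The members and lists were chosen with earlier results of these data known. The alternatives were another scaling, another background correction or none, the median of spots, the deposited table (log2 of value plus 1), other detection filters, array weights, a pool-number block, pools left out, each kind of array alone and removal of the GC trend. The GC trend, ratios after normalization and the leaving out of pairs of pools were added after the data were seen. The separation of ratios within both kinds of array was also not among the planned tests. Levels with the GC trend removed were then quantile-normalized, and ratios with it removed were not.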

Additional observations from a re-analysis of the deposited data

How the results depend on the processing

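With 1 pool left out, the difference was 0.14 to 0.45 for miR-34, -0.18 to -0.076 for miR-277 and -0.044 to 0.18 for miR-317, the number of miRNAs past the adjusted p was 0 to 0, the difference in log2 ratio was 0.48 to 0.74 for miR-34 to miR-277, 0.27 to 0.41 for miR-34 to miR-317 and -0.42 to -0.16 for miR-277 to miR-317, and r was -0.30 to 0.063 for miR-34 and miR-277, 0.52 to 0.79 for miR-34 and miR-317 and -0.27 to -0.032 for miR-277 and miR-317. The difference of miR-277 turned positive after scaling to the 75th percentile of all miRNA probes (0.092), scaling to the median (0.22), no normalization (0.28), removal of the GC trend (0.068) and within the arrays with at most 80 detected miRNAs (0.046). That of miR-317 turned negative within the arrays with over 80 detected miRNAs (-0.17), without dsVg pools 1 and 5 (-0.034) and without dsGFP pool 1 and dsVg pool 5 (-0.060). With array weights 1 miRNA, not a member, passed the adjusted p (0.0385), and the differences were 0.068 for miR-34, -0.052 for miR-277 and 0.037 for miR-317. The r of miR-34 and miR-277 was 0.59 with the 75th percentile of all probes, 0.75 with median scaling, 0.67 without normalization, 0.26 without dsVg pools 1 and 5, 0.35 with the GC trend removed and -0.73 with cyclic loess. The r of miR-277 and miR-317 was 0.68, 0.86 and 0.77 under these 3 scalings, 0.24 within the arrays with over 80 detected miRNAs normalized alone, 0.69 with the GC trend removed and -0.70 with cyclic loess. The r of miR-34 and miR-317 lost its call, with the direction kept, in the deposited table (0.57), within the arrays with over 80 detected miRNAs (0.87) and the others (0.88), both normalized alone, without dsVg pools 1 and 5 (0.60), without dsGFP pool 1 and dsVg pool 5 (0.53) and with the GC trend removed (0.44). The cause of these changes was not tested, and the runs with pools left out also had fewer pools. With the pool number as a replicate block the differences were 0.28, -0.12 and 0.06 (limma adjusted p = 0.762, 0.753 and 0.904) and those of the ratios were 0.62, 0.33 and -0.29, and the block changed no call. The labels do not say whether the number pairs the pools. Same-numbered pools correlated at -0.27 to 0.53 in their deviations, 2 of 6 pairs above 0.1. Of the 6 dsVg pools 0 correlated best with their own number. So few pairs cannot settle whether the pools were paired.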

Other observations

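The miRNAs most like each member also differed in base composition. Those nearest to miR-34 had GC contents of 57.1% (miR-210), 56.5% (miR-124) and 54.5% (miR-31a), and those nearest to miR-277 had 38.1% (let-7), 42.1% (miR-71) and 34.8% (miR-7). Those nearest to miR-317 had 45.5% (miR-3719), 60.9% (miR-275) and 45.5% (miR-981). The median over the 33 miRNAs detected on all arrays was 45.5%. With the GC trend of each array removed, 0 of 84 miRNAs passed the adjusted p in limma (smallest adjusted p = 0.247), and 14 had an unadjusted p under 0.05, against 3 with the trend left in. The difference of miR-34 was then 0.49 (SE 0.22, limma adjusted p = 0.282).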
